A study of Mus musculus with 27 samples.

Results

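The genes described here encode the subunits of the receptors for glutamate and GABA, the main excitatory and the main inhibitory transmitter of the brain. They were taken by symbol: every AMPA, NMDA, kainate, metabotropic glutamate, GABA-A, GABA-rho and GABA-B receptor gene whose probe set on the array was annotated with 1 gene. This gave 40 of 19937 genes measured. The 40 were 4 AMPA, 6 NMDA, 5 kainate, 7 metabotropic glutamate, 13 GABA-A, 3 GABA-rho and 2 GABA-B receptor genes. Gabrb2 alone had several probe sets, of which that with the highest average across the 27 arrays stands for it.

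Ionotropic glutamate receptors (AMPA, NMDA and kainate) and GABA-A receptors are ion channels built from several subunits, so the subunits a cell makes decide which ions pass and how long the channel stays open. Metabotropic glutamate receptors and GABA-B receptors act through G proteins. Neural stem cells, astrocytes and their precursors carry many of these receptors as well as neurons, and in the neurogenic zones glutamate and GABA are known to influence proliferation.

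The samples were mouse cells and tissues, each hybridized to 1 Affymetrix expression array. Cultures comprised normal neural stem cells (NSCs, genotype WT, n = 2) and 10 immortalized NSC lines measured once each, of which lines 3, 28, 31, 59, 95 and 116 were labelled p53 mutant and lines 119, 120, 123 and 331 WT. Tissues comprised 12 tumors, 3 each from lines 1 and 123 (WT) and lines 31 and 59 (p53 mutant), and 3 samples of subcutaneous tissue (SubQ, WT). The labels give CB17/ICR-Prkdcscid/IcrCrl, a severe combined immunodeficiency (SCID) strain, as the host strain of every sample. The tumors carry the tissue label subcutaneous tissue as well. The labels do not say how the lines were immortalized, which p53 allele the mutant lines carry, at what age or sex animals were used, or whether any sample was pooled. Line 1 was profiled as tumors only. The titles call the arrays of a group biological replicates but name no separate cultures or animals, so p-values here reflect only how much these samples vary, which may be technical. A tumor sample is a mixture of mouse tumor cells and mouse host cells, and in such bulk RNA fewer cells of a type and less RNA per cell cannot be told apart.

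Values are log2 expression levels. Levels of different genes come from different probes, and no order between genes is reported. To say whether a gene gave signal at all, its level was set beside the 95th percentile of 1190 odorant and vomeronasal receptor genes on the same array, a set of receptors used by sensory neurons of the nose; this value is called the low reference. It lay at 6.73 to 6.91 on the NSC arrays, 6.64 to 6.90 on the line arrays, 4.99 to 5.44 on the tumor arrays and 6.30 to 6.49 on the SubQ arrays. Arrays of cultures and of tissues shared no equal value, were taken as normalized in separate sets, and no test was made between them. The NSC arrays carried high levels of neural stem and progenitor markers (mean of 7 markers 9.32 on both arrays), while the lines lay between 6.79 and 7.66, with 4 of 7 markers called lower. Sox2 and Nes were above the low reference on all 10 lines, and Fabp7, a fatty acid binding protein of radial glia, on 1. The SubQ arrays had a narrow range of signal (SD over genes 0.869 to 1.02, against 1.63 to 1.79 in tumors) and correlated with each other across genes at r = 0.656 to 0.720. Tumor replicate 3 of line 31 stood apart from its line (r = 0.942 and 0.959 across genes with replicates 1 and 2, which correlated at 0.974), and results that rest on it are given with and without it.

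More of these receptors gave signal on each NSC array than on any immortalized line. The low reference was exceeded by 18 and 16 of the 40 genes on the NSC arrays and by 7 to 11 on single lines, while over all genes the share was 62.4% and 59.4% on the NSC arrays and 58.7% to 63.5% on the lines. On both NSC arrays 16 genes exceeded it, and 5 did on all 10 lines (Gabbr1, Gria3, Grik5, Grin3b and Grm2), a stricter demand over more arrays. Between the lines and the NSCs 11 of 40 genes (27.5%) were called with limma at an adjusted p under 0.05, 10 lower in the lines and 1 higher. Over all genes 15.0% were called, 8.22% lower and 6.79% higher. The 10 that fell came from every class but the GABA-rho receptors: 2 AMPA (Gria2, Gria4), 1 NMDA (Grin3a), 2 kainate (Grik1, Grik2), 2 metabotropic (Grm3, Grm5), 2 GABA-A (Gabra2, Gabrg1) and 1 GABA-B (Gabbr2). Gabre, a GABA-A subunit, rose. The median change over the 40 genes was -0.12, against -0.01 over all genes, since the other 29 lay between -1.15 and 0.76 and 27 of them within 0.5. In 13 genes (32.5%) all 10 lines lay below both NSC arrays, which held for 11.1% of all genes. In 1 gene, Gabre, all lines lay above both, which held for 10.1% of all genes.

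**Figure D1:**
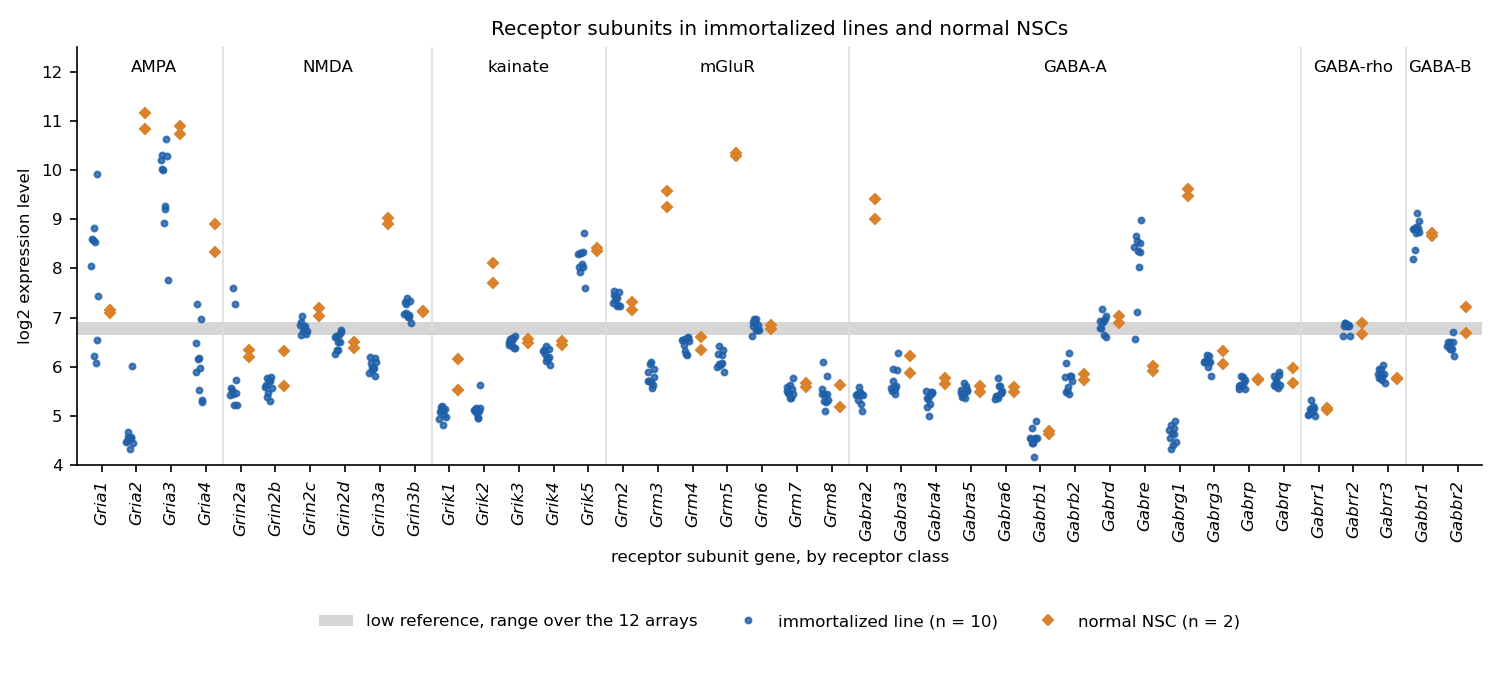
Log2 expression level (vertical axis) of the 40 receptor subunit genes (horizontal axis, grouped by receptor class) in 10 immortalized lines (blue circles) and 2 normal NSC arrays (orange diamonds); the grey band is the range of the low reference over the 12 arrays. Of the genes that fell, 8, Gria2 and Grm5 among them, have both NSC points above the band and, but for 2 lines in Gria4, all line points at or below it.

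AMPA receptors are the channels of fast excitation. Among their genes were the receptor gene with the largest change and that with the widest spread between lines. Gria2 encodes the subunit whose edited form keeps calcium out of the channel. Its level was 11.17 and 10.83 on the NSC arrays and 4.34 to 6.02 on the lines, with a median of 4.55. The groups did not overlap, and no line reached the low reference; the highest value, 6.02, was that of line 123, the next was 4.68. The change was -6.33 ± 0.32 (SE; adjusted p = 1.42e-08, limma). The 250 bases upstream of a start given for it by RefSeq are shown because this gene changed most, and as the base for the GABA-A windows printed further on. Such windows came from RefSeq, assembly GRCm38.p6, which held one for 31 of the 40 genes. The Gria2 window lies wholly within the annotated span of the gene, which on this strand begins at base 80804227, so it belongs to a start inside that span. Capitals mark the CpG pairs, of which the Gria2 window has 19. A TATA box, a GC box or a CCAAT box, in the letters given with the GABA-A windows, was found on neither strand.
Gria2 (chr3:80802836-80803085, strand -): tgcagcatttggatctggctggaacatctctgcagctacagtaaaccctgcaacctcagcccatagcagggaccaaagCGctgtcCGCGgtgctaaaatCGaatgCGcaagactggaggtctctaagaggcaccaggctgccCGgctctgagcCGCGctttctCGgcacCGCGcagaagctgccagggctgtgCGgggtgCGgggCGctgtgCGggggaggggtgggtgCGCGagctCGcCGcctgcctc

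Gria4, another AMPA subunit, was at 8.90 and 8.34 in the NSCs and at 5.29 to 7.27 in the lines (median 6.07). All lines lay below both NSC arrays, and lines 31 (7.27) and 120 (6.96) alone exceeded the low reference. The change was -2.51 ± 0.44 (adjusted p = 0.00146). Gria3 lay at 10.89 and 10.73 in the NSCs and at 7.76 to 10.64 in the lines (median 10.01), all lines below both NSCs and all above the low reference. Its change of -1.15 ± 0.57 was not called (adjusted p = 0.226). Line 331 had the lowest Gria3 and line 120 the highest.

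Gria1 was the receptor gene with the largest spread over the lines. Its level was 7.15 and 7.09 in the NSCs. Among the p53 mutant lines it was 8.05 in line 3, 8.59 in line 28, 8.58 in line 31, 6.22 in line 59, 8.83 in line 95 and 8.55 in line 116. Among the WT lines it was 6.08 in line 119, 9.93 in line 120, 6.55 in line 123 and 7.44 in line 331. In 7 lines it lay above both NSC arrays and in 3 (59, 119 and 123) below them and below the low reference, so the mean change of 0.76 ± 0.83 was not called (adjusted p = 0.659). The SD over the 10 lines was 1.27 for Gria1, 0.87 for Gria3, 0.86 for Grin2a, 0.75 for Gabre and 0.66 for Gria4; these 5 exceeded 0.5, while the median over the 40 genes was 0.165 and that over all genes 0.182. These 5 and Gria2 lay at or above percentile 92.5 of all genes by this SD.

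**Figure D2:**
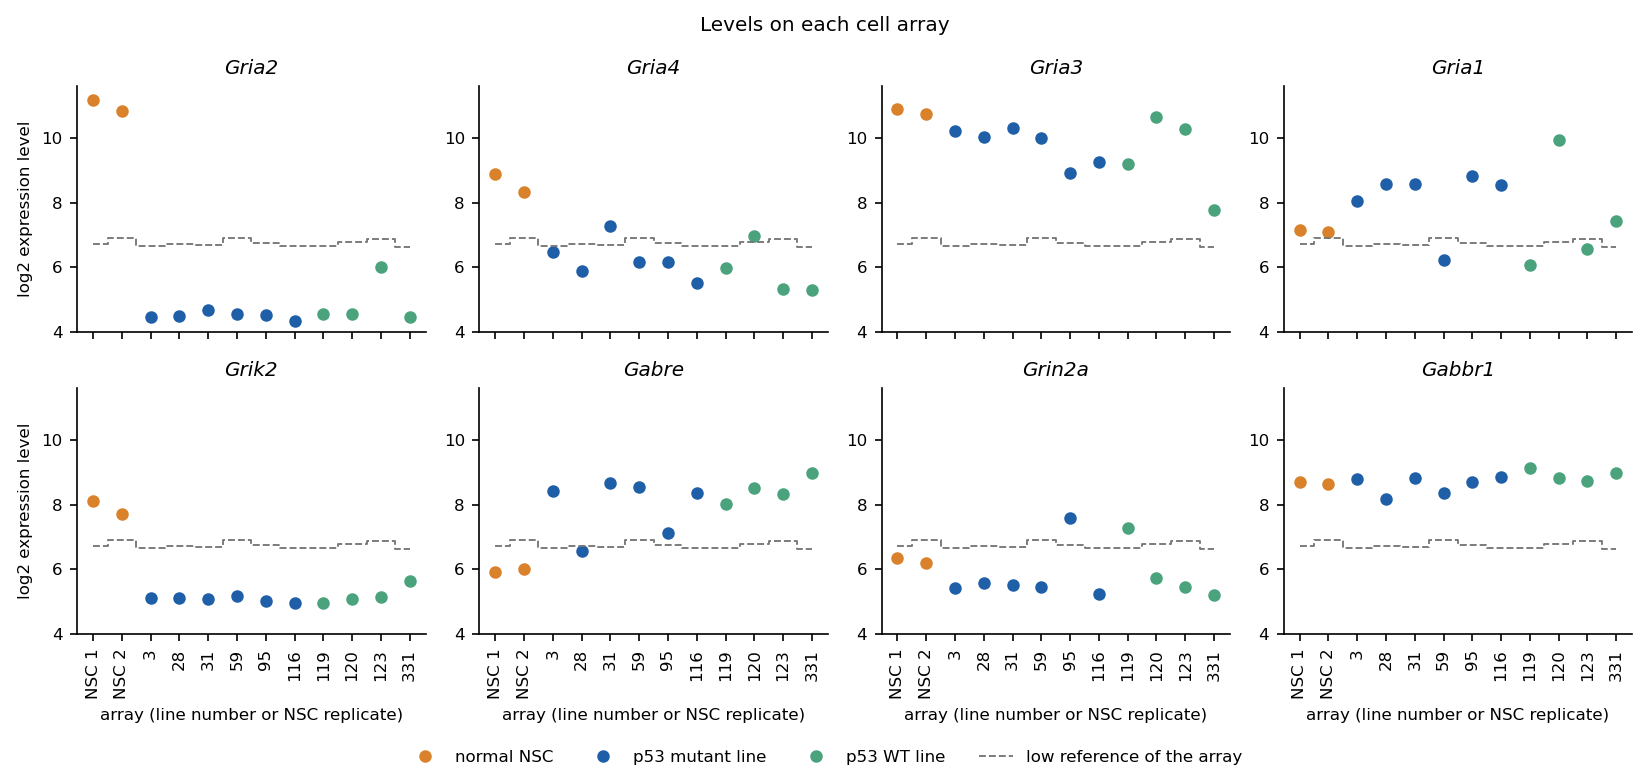
Log2 expression level (vertical axis) of 8 subunit genes on each of the 12 cell arrays (horizontal axis: NSC replicates, then line numbers), with NSCs in orange, p53 mutant lines in blue, WT lines in green and the low reference of each array as a dashed line. Gria2 lies between 4.34 and 6.02 in the lines, Gria1 spreads from 6.08 to 9.93, and Gabre lies above both NSCs in every line.

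NMDA receptors pair glycine-binding with glutamate-binding subunits. Grin3a, a glycine-binding subunit that lowers the calcium entry through the channel, was at 9.03 and 8.89 in the NSCs and at 5.81 to 6.19 in the lines (median 5.98). No line came near the NSCs or reached the low reference, and the change was -2.95 ± 0.11 (adjusted p = 2.99e-10). Its relative Grin3b stayed between 6.89 and 7.40 in the lines beside 7.11 and 7.14 in the NSCs, a change of 0.02 ± 0.13. The glutamate-binding subunits Grin2a, Grin2b, Grin2c and Grin2d were not called. Grin2a was at 6.35 and 6.19 in the NSCs and at 5.22 to 5.74 in 8 lines, but at 7.60 in line 95 and 7.29 in line 119. Those 2 lines were the only cell arrays on which Grin2a exceeded the low reference, and its mean change was -0.42 ± 0.56 (adjusted p = 0.737).

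Kainate receptors need Grik1, Grik2 or Grik3 to form a channel, to which Grik4 and Grik5 add high affinity for kainate. Grik2 was at 8.12 and 7.71 in the NSCs and at 4.96 to 5.64 in the lines (median 5.12). Every line lay below the NSCs and below the low reference, line 331 being the highest. The change was -2.77 ± 0.15 (adjusted p = 2.92e-08). Grik1 also fell by less than 1 on the log2 scale, at levels below the low reference on every cell array. Grik5 exceeded the low reference on all 12 cell arrays, at 8.34 and 8.42 in the NSCs and 7.61 to 8.72 in the lines, with a change of -0.22 ± 0.20 that was not called (adjusted p = 0.594). In the lines the high-affinity subunit Grik5 thus gave signal where none of Grik1, Grik2 and Grik3 exceeded the low reference.

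Of the metabotropic glutamate receptors, Grm5 and Grm3 fell. Grm5 couples to phospholipase C through Gq, and Grm3 lowers cyclic AMP through Gi; both are known from astrocytes. Grm5 was at 10.28 and 10.34 in the NSCs and at 5.91 to 6.42 in the lines (median 6.07), a change of -4.17 ± 0.12 (adjusted p = 6.91e-11). Grm3 was at 9.58 and 9.25 in the NSCs and at 5.56 to 6.10 in the lines (median 5.76), a change of -3.60 ± 0.14 (adjusted p = 9.76e-10). In both genes the groups lay far apart and all lines were below the low reference. Grm2, the other Gi-coupled receptor of the group of Grm3, was at 7.16 and 7.31 in the NSCs and at 7.24 to 7.55 in the lines, with overlapping values and a change of 0.14 ± 0.10 (adjusted p = 0.460). Grm4, Grm6, Grm7 and Grm8 were not called.

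GABA-A receptors are chloride channels of 5 subunits, most often with alpha, beta and gamma subunits. Gabrg1, a gamma subunit known from glia, was at 9.61 and 9.47 in the NSCs and at 4.32 to 4.90 in the lines (median 4.65). Gabra2, an alpha subunit, was at 9.40 and 9.01 in the NSCs and at 5.10 to 5.59 in the lines (median 5.44). Both were below the low reference on all 10 lines. The change was -4.91 ± 0.14 for Gabrg1 (adjusted p = 3.20e-11) and -3.81 ± 0.12 for Gabra2 (adjusted p = 1.49e-10). Gabrb1 and Gabrb2, the beta subunits measured, were below the low reference on all 12 cell arrays.

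Gabre encodes the epsilon subunit, which can take the place of a gamma subunit. It was at 5.92 and 6.01 in the NSCs, below the low reference. In the lines it was 8.43 in line 3, 6.56 in line 28, 8.66 in line 31, 8.56 in line 59, 7.12 in line 95, 8.35 in line 116, 8.02 in line 119, 8.51 in line 120, 8.34 in line 123 and 8.99 in line 331. All 10 lines lay above both NSC arrays, and all but line 28 exceeded the low reference. The change was 2.19 ± 0.49 (adjusted p = 0.00776). The call rested on having both NSC arrays. Without NSC replicate 1 the change was 2.14 and without NSC replicate 2 it was 2.24, and the call was lost in both fits. Each of these fits keeps 1 NSC array, and in each the calls over all genes fell as well.

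Several GABA-A genes lie in clusters. On chromosome 5, in the order Gabrg1, Gabra2, Gabra4 and Gabrb1 given by the RefSeq annotation, the first pair fell and the second was not called (changes of -0.36 ± 0.12 and -0.13 ± 0.14), at levels below the low reference in NSCs and lines. On chromosome X, in the order Gabre, Gabra3 and Gabrq, Gabre alone was called; Gabra3 changed by -0.32 ± 0.19 and Gabrq by -0.11 ± 0.10. The clusters of Gabrg3 and Gabra5 on chromosome 7 and of Gabra6 and Gabrb2 on chromosome 11 had no called gene. The upstream windows of the 3 GABA-A genes that were called are shown for comparison, because Gabrg1 and Gabra2 fell and Gabre rose. The Gabre window overlaps the annotated span of its gene, which begins at base 72274828. Capitals again mark CpG pairs. The letters GGGCGG, a GC box, searched on both strands, are held by 32.7% of all 32851 windows, among them those of Gabra2 and Gabre. CCAAT, searched likewise, is held by 33.8%, among them those of Gabrg1 and Gabra2, and TATAAA by 12.4%, none of these 3 among them. The Gabrg1 window has 1 CpG, that of Gabra2 18 and that of Gabre 21, against a median of 6 over all windows. In CpG count Gabra2 was thus nearer to Gabre than to Gabrg1.
Gabrg1 (chr5:70842618-70842867, strand -): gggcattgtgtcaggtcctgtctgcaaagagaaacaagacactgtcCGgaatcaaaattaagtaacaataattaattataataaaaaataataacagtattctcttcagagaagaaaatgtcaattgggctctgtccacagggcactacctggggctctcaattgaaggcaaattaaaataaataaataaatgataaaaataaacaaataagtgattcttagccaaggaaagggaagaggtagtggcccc
Gabra2 (chr5:71095850-71096099, strand -): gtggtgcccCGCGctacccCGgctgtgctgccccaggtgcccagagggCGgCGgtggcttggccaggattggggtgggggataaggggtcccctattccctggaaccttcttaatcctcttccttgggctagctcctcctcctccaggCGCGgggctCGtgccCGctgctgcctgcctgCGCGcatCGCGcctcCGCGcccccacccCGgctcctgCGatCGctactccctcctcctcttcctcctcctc
Gabre (chrX:72274722-72274971, strand -): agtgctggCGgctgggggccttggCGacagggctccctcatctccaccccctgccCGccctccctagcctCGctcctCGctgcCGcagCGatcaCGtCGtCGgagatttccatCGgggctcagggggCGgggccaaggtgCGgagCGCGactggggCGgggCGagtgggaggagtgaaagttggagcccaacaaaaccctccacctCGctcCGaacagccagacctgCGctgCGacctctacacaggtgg

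**Figure D3:**
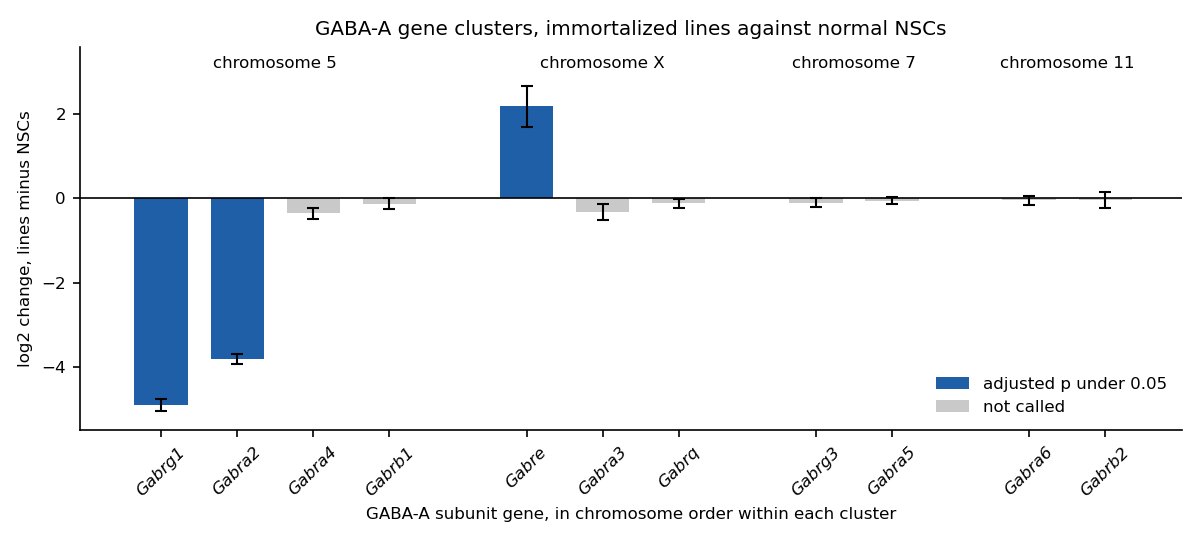
Log2 change, lines minus NSCs (vertical axis, bars with SE), of the GABA-A genes that lie in clusters, in chromosome order (horizontal axis); blue bars passed an adjusted p of 0.05. Gabrg1 (-4.91) and Gabra2 (-3.81) on chromosome 5 and Gabre (2.19) on chromosome X are the called genes, and their neighbours lie within 0.36 of 0.

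GABA-B receptors are obligate pairs of Gabbr1, which binds GABA, and Gabbr2, which couples to the G protein. Gabbr1 exceeded the low reference on all cell arrays, at 8.71 and 8.65 in the NSCs and 8.19 to 9.13 in the lines, with a change of 0.06 ± 0.19 (adjusted p = 0.907). Gabbr2 was above the low reference on 1 NSC array and on no line, and fell by less than 1. The calls of Gabbr2 and Grik1 were lost without NSC replicate 1, in a fit that keeps 1 NSC array and in which calls over all genes fell as well. None of the 3 GABA-rho genes, Gabrr1, Gabrr2 and Gabrr3, was called, and their changes lay between -0.02 and 0.08.

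Genes that clear, make or anchor these transmitters and receptors also fell more often than they rose, in a list of 65 measured genes outside the receptors. Of 20 transport and metabolism genes, 8 were lower and 1 higher in the lines (median -0.52). The largest falls were those of the GABA transporter Slc6a11 (-3.91 ± 0.13, adjusted p = 1.31e-10), the astrocyte glutamate transporters Slc1a3 (-3.41 ± 0.58, adjusted p = 0.00116) and Slc1a2 (-2.14 ± 0.12, adjusted p = 4.73e-08), and the glutamine transporter Slc38a3 (-2.48 ± 0.12, adjusted p = 7.85e-09). Glul, glutamine synthetase, fell by 1.55 ± 0.27 (adjusted p = 0.00158), and the neutral amino acid transporter Slc1a5, named after its value was seen as the 1 gene that rose, changed by 1.46 ± 0.46 (adjusted p = 0.0489). Of 40 auxiliary subunits, scaffolds and synaptic proteins, 17 were lower and none higher (median -0.35), in the same limma fit, in which 6.79% of all genes were called higher. Neto1, an auxiliary subunit of kainate receptors, went from a mean of 10.31 to 5.44 (-4.87 ± 0.17, adjusted p = 2.50e-10), while its relative Neto2 fell by 2.44 ± 0.53 (adjusted p = 0.00688) and still exceeded the low reference on all lines. Nlgn1 and Nlgn3, adhesion proteins of synapses, changed by -3.73 ± 0.11 and -2.54 ± 0.16, and the kinase subunit Camk2b by -3.24 ± 0.11. Of 5 glycine receptor genes Glrb alone was called (-1.63 ± 0.44, adjusted p = 0.0246).

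Markers of other cell types moved between the same groups. Of 8 astrocyte markers 7 were called lower in the lines (mean level 8.81 to 8.89 in NSCs, 6.54 to 7.04 in lines), Slc1a2 and Slc1a3 of the transporter list among them; Gfap was not called and lay below the low reference on all lines. Of 11 neuron markers 6 were called lower (7.51 to 7.72 in NSCs, 6.32 to 7.30 in lines), and of 7 oligodendrocyte lineage markers 2 (8.0 to 8.29 against 6.65 to 7.54). Of 5 fibroblast markers, Col1a1 and Col1a2 were called higher (6.44 to 6.72 in NSCs, 7.52 to 9.55 in lines). The part of these differences in the receptor results was not tested.

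Genotype at p53 did not separate the lines by these genes. With limma none of the 40 was called between the 6 p53 mutant and the 4 WT lines, and none had an unadjusted p under 0.05. Over all genes 0.0201% were called. The largest differences, mutant minus WT, were 0.64 ± 0.72 for Gria1, -0.52 ± 0.41 for Gabre and -0.39 ± 0.27 for Gria2, whose value in the WT line 123 lay apart. A p above the threshold does not show that the genotypes are alike. Against the NSCs, the mutant lines alone had 10 genes called lower and 1 higher, beside 1732 and 1352 of all 19937 genes. The WT lines alone had 9 lower and 1 higher, beside 1232 and 1158 of all genes, and Gabbr2 lost its call.

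Among the tumors of the 4 lines, compared by a moderated F test of limma, 4 of 40 genes (10%) were called, beside 5.07% of all genes. They were Gabre, Grik2, Gabrb2 and Grm7. The range between line means was 3.53 for Gabre (adjusted p = 0.00922), 2.45 for Grik2 (0.0179), 1.06 for Gabrb2 (0.0260) and 0.88 for Grm7 (0.0225). On all 12 tumor arrays 3 of the 40 genes exceeded the low reference (Gabbr1, Grin3b and Grm2), and 24 exceeded it on none. On single tumor arrays 7 to 14 of the 40 exceeded it, beside 57.4% to 66.0% of all genes.

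Gabre again stood out. It was at 4.54, 4.92 and 4.39 in the tumors of line 1, below the low reference. In line 31 it was at 5.52, 5.5 and 7.83, in line 59 at 7.98, 8.75 and 7.70, and in line 123 at 7.18, 6.56 and 6.65. The tumors of lines 59 and 123 lay above all tumors of line 1, as did those of line 31, whose replicate 3 lay above the others. Without that array the range among lines was the same and the adjusted p 5.24e-05. Beside 4.62% of all genes for line 1 and 1.17% for line 59 when each was set against the other lines, 2 and 1 of the 40 were called. Line 1 was 2.46 ± 0.42 below the other lines (adjusted p = 0.00610, limma) and line 59 2.24 ± 0.42 above them (adjusted p = 0.0220). The line 59 call was lost without any 1 of its 3 tumors (adjusted p = 0.0528 to 0.157). SubQ tissue had Gabre at 5.37, 4.95 and 5.12, below its low reference.

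Grik2 was below the low reference in all 10 lines measured in culture, which did not include line 1. It gave signal in tumors of line 1. Its level there was 5.92, 5.43 and 7.35, while line 31 had 4.35, 4.09 and 4.26 and line 59 had 3.77, 3.73 and 3.85. Line 123 had 5.26, 5.58 and 4.19, of which the first 2 exceeded the low reference. Line 1 was 1.89 ± 0.34 above the other lines (adjusted p = 0.00933). All 3 tumors of line 1 lay above all 6 of lines 31 and 59, and they overlapped those of line 123. Endothelium markers were also high in line 1 tumors (mean of 4 markers 7.93 to 8.28, other lines 6.16 to 7.01), and their part was not tested.

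Gabrb2 and Grm7 were called but did not exceed the low reference in all tumors of any line, and they are named after their values were seen. Gabrb2 was at 4.95, 5.37 and 5.99 in line 123 and between 4.12 and 4.58 in the 9 other tumors, so line 123 lay wholly above them (1.03 ± 0.18, adjusted p = 0.0181). It was the 1 gene of the 40 called for line 123 against the other lines, beside 0.848% of all genes. Its call was lost without replicate 2 (adjusted p = 0.0763) or replicate 3 (0.104) of line 123. Of its 3 probe sets, the 2 not used gave line 123 means of 4.75 and 3.94 beside 3.30 to 3.51 in the other lines, the same direction. With the mean of the 3 probe sets Gabrb2 was not called among the lines (range 1.01, adjusted p = 0.0511). Grm7 had line means of 3.70 to 4.58 and exceeded the low reference on no tumor. Neuron markers were highest in the tumors of line 123 too (mean of 11 markers 5.57 to 6.0, other lines 4.69 to 5.38), and their part in the Gabrb2 result was not tested.

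The AMPA genes Gria1, Gria3 and Gria4 were not called among the lines. Gria1 was at 6.32, 7.67 and 6.34 in line 1, 4.22, 4.50 and 5.95 in line 31, 6.80, 7.47 and 6.23 in line 59 and 6.44, 6.57 and 5.86 in line 123. Line 31 was 1.74 ± 0.39 below the other lines, which was not called (adjusted p = 0.0503), and 0 of the 40 genes were called for line 31, beside 1.39% of all genes. Without replicate 3 of line 31, the array that stood apart, the difference was -2.27 ± 0.36 (adjusted p = 0.00609). In that fit Gria1 and Gria4 were also called among the lines (ranges of 2.47 and 1.3, adjusted p = 0.0101 and 0.0456), which made 6 genes. Gria3 was called without replicate 1 of line 1 (range 2.18, adjusted p = 0.0363). Gria4 was at 6.84 in replicate 3 of line 31 and at 4.58 and 4.43 in the other tumors of line 31. Endothelium markers were higher in that replicate (7.01 against 6.20 and 6.35) than in those tumors. Keratinocyte markers were lower in it (4.82 against 5.79 and 6.23), and the part of these markers was not tested.

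**Figure D4:**
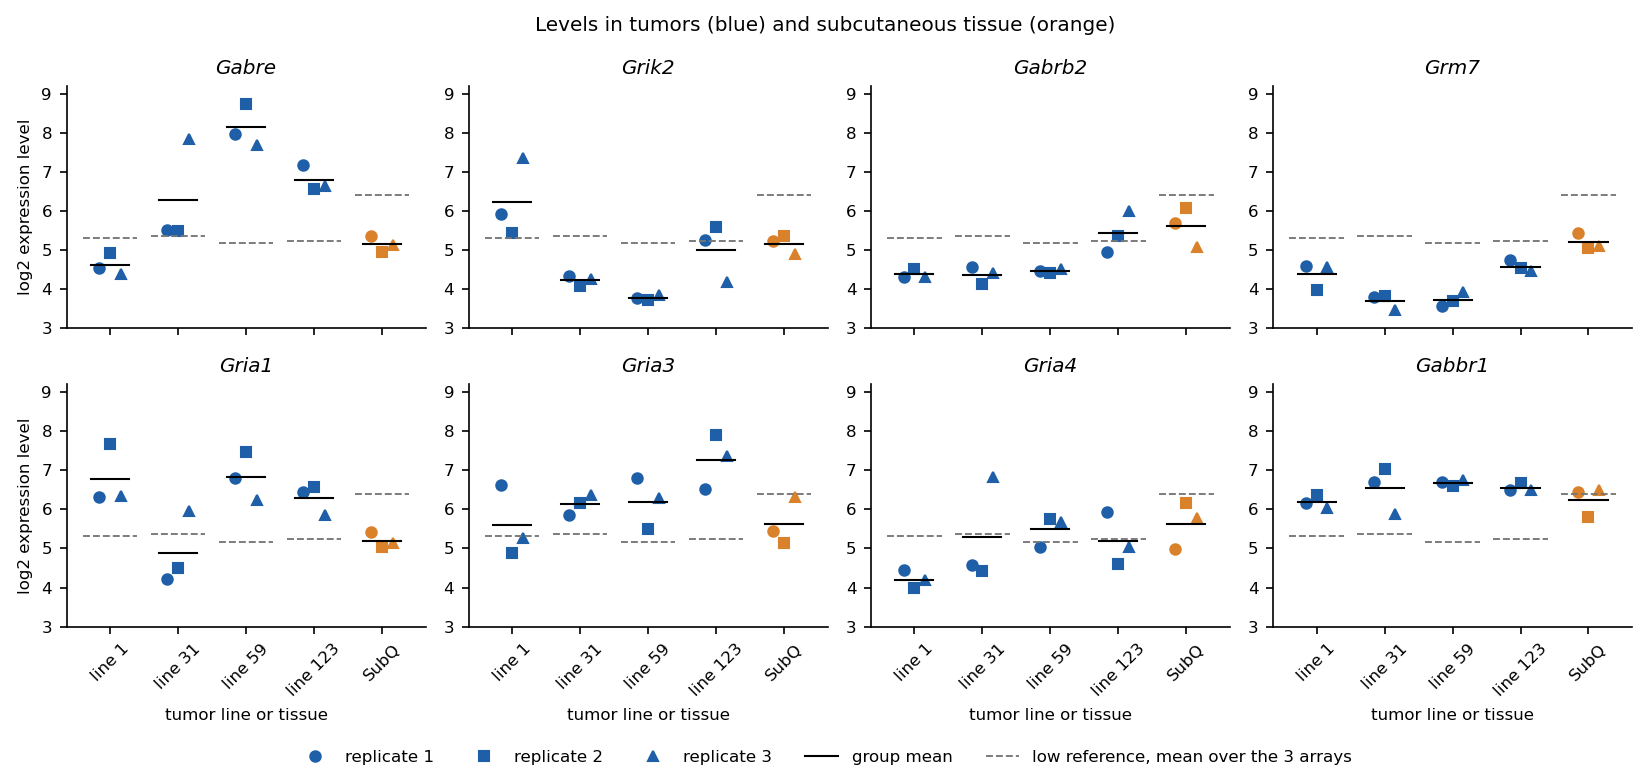
Log2 expression level (vertical axis) of 8 subunit genes in the 3 tumors of each line and 3 SubQ samples (horizontal axis); symbols mark replicates, black bars group means and dashed bars the mean low reference of the 3 arrays. Gabre lies highest in line 59 (7.70 to 8.75) and below the reference in line 1, and Grik2 lies highest in line 1 (5.43 to 7.35).

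Against SubQ tissue 33 of the 40 genes were called in the tumors, all of them lower. Over all genes 76.5% were called, 45.8% lower and 30.7% higher. In 27 genes (67.5%) all tumors lay below all SubQ samples, and in none above, which held for 30.6% and 21.9% of all genes. The median change was -0.86 for the 40 genes and -0.28 over all genes. The median of the 1190 odorant and vomeronasal receptor genes was lower in tumors too, at 3.47 to 3.87 on tumor arrays and 4.79 to 5.07 on SubQ arrays. Whether the 40 genes fell beyond such a shift of dim signals was not tested. The count depended on how the arrays were scaled. On the deposited scale 15256 of 19937 genes had been called. After centring of the arrays on their medians 31 of the 40 were called, all lower, beside 14874 of all genes. After quantile normalization 20 were called, 18 lower and 2 higher, beside 11657 of all genes, 6462 lower and 5195 higher. With it the median over all genes moved to -0.11. The 2 higher were Gabre (1.80 ± 0.70, adjusted p = 0.0354) and Gria1 (1.48 ± 0.48, adjusted p = 0.0148), which on the deposited scale were 1.31 ± 0.76 and 1.00 ± 0.53 higher and not called (adjusted p = 0.124 and 0.0967). No gene of the 40 exceeded the low reference on all 3 SubQ arrays, so most of these falls were between signals below it. On single SubQ arrays 1 to 5 of the 40 exceeded it. Over all genes the share was 20.5% to 29.4% on SubQ arrays, against 57.4% to 66.0% on tumor arrays.

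Of the genes called lower, 5 exceeded the low reference in all 3 tumors of at least 1 line. Of these, Gabrd, Grik5 and Grin3b exceeded it on 0 of 3 SubQ arrays but on 5, 10 and 12 of 12 tumor arrays. Grm2 exceeded it on 1 and Grm6 on 2 SubQ arrays. The reference itself lay at 4.99 to 5.44 on tumor arrays and at 6.30 to 6.49 on SubQ arrays. Grm6, known from retinal bipolar cells, was at 7.11, 6.21 and 7.0 in SubQ and at 5.03 to 5.79 in tumors (median 5.42). It changed by -1.35 ± 0.17 (adjusted p = 2.16e-06), and Gabrd, a subunit of receptors outside the synapse, by -0.70 ± 0.18 (adjusted p = 0.00212). Grm2 was at 6.47, 5.38 and 6.56 in SubQ and at 5.24 to 5.75 in tumors (median 5.49), and changed by -0.67 ± 0.19 (adjusted p = 0.00392), Grik5 by -0.40 ± 0.15 (adjusted p = 0.0183) and Grin3b by -0.33 ± 0.12 (adjusted p = 0.0156). The calls of Grik5 and Grin3b were lost after quantile normalization or centring of the arrays, that of Grik5 also without SubQ replicate 1, that of Grin3b without SubQ replicate 2 and that of Grm2 without SubQ replicate 3 (adjusted p = 0.0530). The 7 not called were Gabre, Gria1, Gria3, Gria4, Grin2a, Grik2 and Gabbr1. Grm4 and Grm5 had levels of 6.27 to 6.52 and 6.09 to 6.60 in SubQ. Gabbr1 was at 6.44, 5.81 and 6.50 in SubQ and at 5.87 to 7.04 in tumors (median 6.55), with overlapping values. Gria3 was at 5.44, 5.13 and 6.32 in SubQ and at 4.89 to 7.89 in tumors (median 6.32). Muscle, keratinocyte and adipocyte markers were high in SubQ (mean levels 8.29 to 8.94, 7.16 to 8.37 and 7.37 to 7.91) and macrophage markers in tumors (7.86 to 9.02, against 5.85 to 6.14), and their part was not tested.

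Lines 31, 59 and 123 were measured in culture and as tumors. Because the 2 kinds of arrays were normalized apart and each culture is 1 array, the place of a gene among all genes of its own array was described, without a test. In 12 of 40 genes all 9 tumors had a lower percentile than their own culture and in 6 a higher one. Over all genes the shares were 23.9% and 15.7%. Gria3 fell in place: it was at percentile 93.2, 91.9 and 93.2 in the cultures of lines 31, 59 and 123, and at 55.2 to 66.9, 44.3 to 70.7 and 68.2 to 88.7 in their tumors. Grik5 went from 71.0, 66.3 and 76.5 to between 34.2 and 48.5. Macrophage markers had mean levels of 6.21 to 6.42 in these cultures and 8.02 to 9.02 in their tumors, on arrays normalized apart, and the part of host cells in these places was not tested.

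Gabre and Gria1 differed by line in this respect. Gabre in line 59 was at percentile 76.4 in culture and 86.2 to 94.3 in tumors, and in line 123 at 70.8 and 69.1 to 78.8. In line 31 it was at 76.1 in culture and spread from 43.5 to 87.1 in tumors. Gria1 lay low in the cultures of lines 59 (25.1) and 123 (31.9) and higher in all their tumors (62.5 to 82.4 and 53.2 to 69.9). In line 31 it lay at 75.0 in culture and at 14.4 to 57.9 in tumors. Line 31 thus had the highest Gria1 percentile of the 3 cultures and, but for its replicate 3, the lowest in tumors. Gria2 was low in both, at 5.26 to 21.2 in culture and at 3.07 to 7.28 in tumors.

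**Figure D5:**
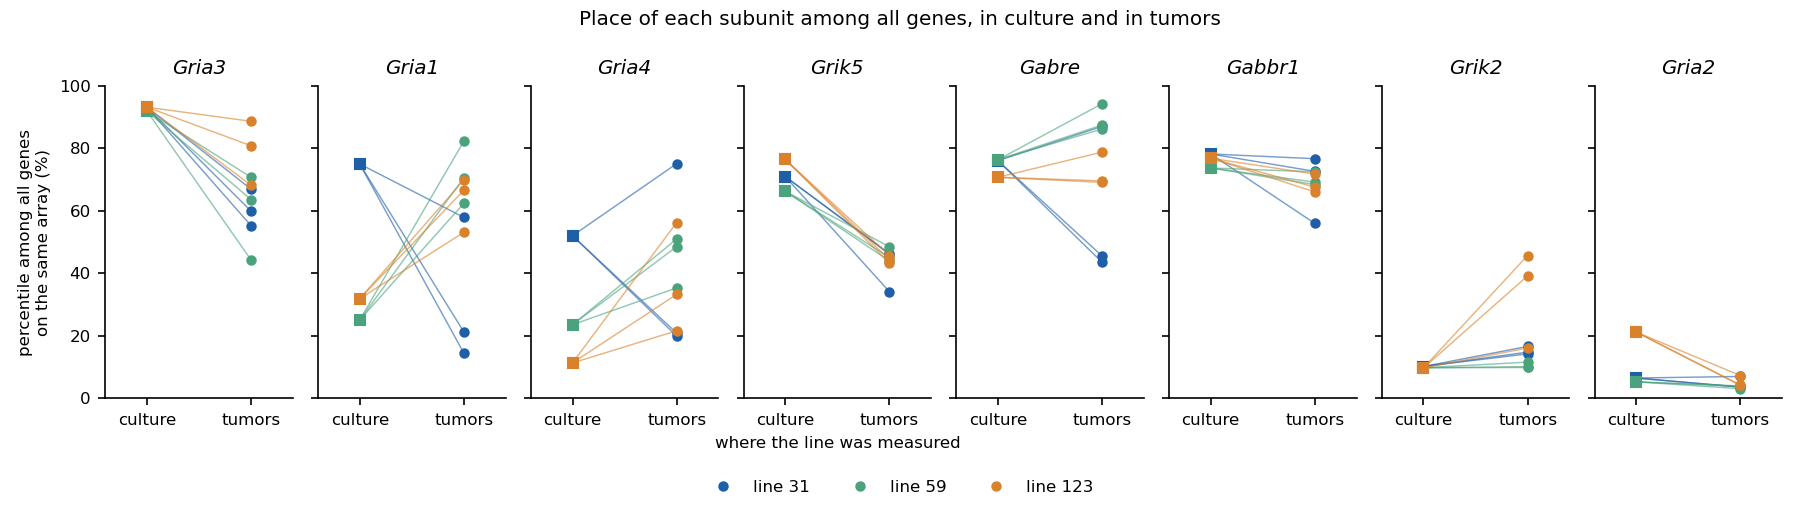
Percentile of 8 subunit genes among all genes on the same array (vertical axis, %) for lines 31, 59 and 123 (colours) in culture (squares, 1 array a line) and in tumors (circles, 3 a line), joined by thin lines. Gria3 and Grik5 lie lower in all 9 tumors than in culture, and Gria1 moves up in lines 59 and 123 and down in line 31.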

How the data were processed

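Total RNA of 27 mouse samples, extracted with Trizol per the labels, was measured on 1 Affymetrix array each. The authors deposited 1 log2 value per probe set and array. The submitters' processing notes name GCOS, Affymetrix Expression Console and RMA, with no version or order. A genome build is not given in the sources used here. Of 34760 deposited probe sets, 21640 were annotated with 1 gene and used. Values were used as deposited, and no value was floored. The 180 pairs of a culture and a tissue array shared no equal value, while arrays within a kind did, so the kinds were taken as normalized apart. The number of arrays limits the precision.

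limma 3.58.1 (R 4.3.3) was fitted over all 19937 genes, with 2-sided p-values, the Benjamini-Hochberg adjustment across the whole table, and calls at an adjusted p under 0.05. In data simulated for the comparison of lines with NSCs, 84% of log2 changes of 1 and 96% of changes of 2 were called. For tumors against SubQ the shares were 67% and 97%, and for the tumor lines 70% and 94%. Each simulation changed 100 of 19937 genes by each size, with independent normal noise. For lines against NSCs it had 185 calls, while the data had 2992, so these shares need not hold for the data. Percentiles, counts, upstream windows and figures used Python 3.11.15 (pandas 2.3.3, numpy 2.4.6) and, for plots, matplotlib 3.10.9. Receptor names matched RefSeq gene IDs of assembly GRCm38.p6 for 40 of 40 genes.

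The receptor genes, the pathway and marker lists and the tests were chosen with earlier results of these data known. Genes were named by rule: those called between lines and NSCs or between genotypes, those called in tumor fits that exceeded the low reference in all 3 tumors of a line (at most 10 a fit), the 5 with the highest mean in each kind of sample (a choice that compares probes and gives no order), the 3 largest changes not called, and up to 5 called genes of each pathway list. Other genes were named to complete a class or cluster. Settings varied in turn: averaged probe sets, only genes above the median level, quantile normalization, centring, eBayes with trend and robust, a further threshold of 2-fold, a joint fit of all 27 arrays, either genotype alone, line as a random block, the replicate number as a block, each replicate left out, and other percentiles of the low reference.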

Additional observations from a re-analysis of the deposited data

Results flagged for a closer look

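In 6 of 69 groups tested, 1 array lay far from the others by Dixon's test, which chance gives in about 1 of 20 separate groups. The groups here overlap, and Gria2 in line 123 counts both among all lines and among the WT lines, so that share is no yardstick for them. Gria2 was at 6.02 in line 123, apart from the other 9 lines (4.34 to 4.68) and from the other WT lines (4.46 to 4.57). Grik2 was at 5.64 in line 331, apart from the other lines (4.96 to 5.17). Both values lay below the low reference. Among the p53 mutant lines, Gria1 was at 6.22 in line 59 (others 8.05 to 8.83), Grin2a at 7.60 in line 95 (others 5.23 to 5.57) and Gabrd at 7.19 in line 59 (others 6.79 to 6.93).

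Tumor lines differed, by the moderated F test, in Gabre (range of line means 3.53, from 4.62 in line 1 to 8.14 in line 59), Grik2 (2.45, from 3.78 in line 59 to 6.23 in line 1), Gabrb2 (1.06, from 4.37 in line 31 to 5.43 in line 123) and Grm7 (0.88, from 3.70 in line 31 to 4.58 in line 123).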

How the results depend on the processing

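Of 505 alternative values for the named receptor genes, 465 kept direction and side of the threshold, 37 lost their call and 3 gained one. None changed sign, which the values among tumor lines could not do, being ranges between line means. Gria2, Gabrg1, Gabra2, Grm3, Grm5, Grin3a, Grik2 and Gria4 stayed called between lines and NSCs under all alternatives that tested them. Testing only genes whose mean was above the median left 6 genes to test between lines and NSCs (1 called, Gabre), beside 2261 called of 9968. It left 4 in tumors against SubQ (0 called, beside 7153 of 9968) and 4 among tumor lines (1 called, beside 906 of 9968). It also left 32 of 65 pathway genes, 12 of them called, while the whole list had 27 called. The alternatives for the pathway list were added after seeing the data. Leaving out 1 line array gave 11 to 12 calls between lines and NSCs, beside 2723 to 3170 over all genes. Leaving out 1 tissue array gave 31 to 34 in tumors against SubQ (14204 to 15249 over all genes). Among tumor lines, leaving out 1 tumor gave 2 to 6 (469 to 1659 over all genes). In the fits of 1 line against the others, only tumors of that line were left out. These gave 2 to 3 calls for line 1 (329 to 907 over all genes) and 0 to 1 for line 31 (47 to 562). For line 59 they gave 0 (86 to 137) and for line 123 0 to 1 (44 to 205). The 2 calls among tumor lines came without replicate 3 of line 1, replicate 2 of line 59, or replicate 2 or 3 of line 123, each of which removed Gabrb2 and Grm7. Tumors against SubQ had 20 calls after quantile normalization (11657 over all genes) and 15 with a 2-fold threshold (8641 over all genes). Line 31 had 1 (Gria1) after quantile normalization (361 over all genes). With the 90th percentile as low reference 20 genes exceeded it on both NSC arrays, 10 on all lines, 6 on all tumors and 2 on all SubQ arrays; with the 99th 11, 3, 0 and 0 did. With the replicate number as a block there were 11 calls between lines and NSCs (3032 over all genes), on the 4 arrays whose numbers both share. Of these, 8 were called in the main comparison. Gabre, Grik1 and Gabbr2 were lost, and Gria1, Gria3 and Grin2a were added. The same arrays without the block gave the same 11 (3252 over all genes). With the block there were also 33 calls in tumors against SubQ (15175 over all genes), 4 among tumor lines (892 over all genes) and 25 pathway genes. Same-numbered arrays deviated together at r = 0.036 to 0.079 (2 pairs of culture arrays) and -0.28 to 0.34 (30 pairs of tissue arrays, 3 over 0.1), so the numbers were not taken as pairing. Depth has no meaning here; the low reference limits what falls between dim signals can show.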
